A study of Mus musculus with 2 samples.

Results

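The genes described here encode carrier proteins that yolk sac endoderm secretes, receptors with which it takes proteins up, and some other proteins. They are 10 of the 24354 genes in the deposited values, chosen by symbol with earlier results of these data known, and all 10 were found: Afp, Ttr, Trf, Spink1, Clic6, Cubn, Amn, Lrp2, Dab2 and Hnf4a. Of these Spink1 encodes a secreted inhibitor, Clic6 a protein of a channel family, Dab2 an adaptor and Hnf4a a transcription factor. RNA was sequenced from differentiating mouse ESCs, in 1 library of control cells (Diff–CONT ESCs) and 1 library of inducible Ino80 knockout cells (Diff–iKO ESCs). By the study's methods both ESC lines came from blastocysts homozygous for the floxed Ino80 allele, Ino80 2f/2f, and the knockout line also carried CreER, a Cre recombinase activated by tamoxifen, in the ROSA26 locus. The labels call the control genotype WT. Both cultures formed embryoid bodies (EBs) in KSR medium, were attached on day 4, and from day 5 received differentiation medium with serum, BMP4 and 0.5 µM 4-OHTM for 7 days, so 4-OHTM reached the control cells too. How many clones or cultures stand behind a library is not given in the sources used here, and with 1 library per condition there is no replicate check and no p-value.

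The visceral endoderm is the epithelium that surrounds the early embryo and becomes the outer layer of the yolk sac. It feeds the embryo before the placenta works by taking up maternal proteins through its apical membrane, breaking them down in lysosomes, and releasing newly made carrier proteins toward the embryo. Uptake runs through megalin, encoded by Lrp2, and through cubilin, which has no membrane anchor of its own and is held at the surface by amnionless. Hnf4a encodes a nuclear receptor that acts on many genes of this epithelium and later of the liver.

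The values are FPKM, fragments scaled to transcript length and to library depth, and were used as deposited. From the steps in which low FPKM values rise, the Diff–CONT library held about 27600000 fragments on 23021 genes matched to a transcript length and the library labelled Diff–iKO about 21500000 fragments. The log2 ratios of the 10 genes are given with a 95% interval by the exact Clopper-Pearson method from the fragments behind them, which covers counting error only. Ino80 itself, the targeted gene, stood at an FPKM of 8.90 in the control and 10.3 in the other library, a log2 ratio of 0.21 with an interval of 0.11 to 0.31. The whole-gene value was therefore not lower where the label says knockout. It has no exon resolution, so it cannot check the deletion, for which the study's methods used PCR of the null allele and of a single exon of the transcript, values not analysed here. The study describes these checks for undifferentiated ESCs. Every direction below compares the library labelled Diff–iKO with the control.

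To show regulatory sequence beside the levels, promoters were read from RefSeq (GRCm38.p6). Of the 10 genes, 6 had at least 1 entry, namely Afp, Cubn, Amn, Lrp2, Dab2 and Hnf4a, and Dab2 and Hnf4a had 2 each, which gave 8 promoters. The 250 bases before the annotated start are printed for the promoters that hold a reported motif there, 5′ to 3′ on the strand of the gene, with matches to the motifs in capitals.
Afp, chr5:90490464-90490713, + strand: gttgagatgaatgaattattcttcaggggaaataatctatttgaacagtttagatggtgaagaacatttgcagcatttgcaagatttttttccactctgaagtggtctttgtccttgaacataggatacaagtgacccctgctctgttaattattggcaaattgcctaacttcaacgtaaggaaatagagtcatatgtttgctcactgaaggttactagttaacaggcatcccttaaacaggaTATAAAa
Hnf4a upstream start, chr2:163506607-163506856, + strand: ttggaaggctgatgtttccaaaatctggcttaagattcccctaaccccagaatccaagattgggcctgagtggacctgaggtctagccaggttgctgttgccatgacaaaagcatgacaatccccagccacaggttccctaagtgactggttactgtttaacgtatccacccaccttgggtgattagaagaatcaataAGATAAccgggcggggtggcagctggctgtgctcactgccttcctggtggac
Amn, chr12:111270846-111271095, + strand: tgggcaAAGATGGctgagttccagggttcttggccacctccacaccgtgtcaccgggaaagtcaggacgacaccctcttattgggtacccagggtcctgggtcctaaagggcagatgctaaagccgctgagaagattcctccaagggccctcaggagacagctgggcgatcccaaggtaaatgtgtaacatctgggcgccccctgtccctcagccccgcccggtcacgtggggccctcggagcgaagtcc
The Afp promoter held TATAAA, the letters of a TATA box, from base -7 to -2, counted back from the start that the promoter table uses. Those letters lie nearer to that start than a TATA box usually does. The upstream start of Hnf4a had the GATA motif AGATAA at -52 to -47, and the Amn promoter had AAGATGG, the core of the YY1 motif, at -244 to -238. For Hnf4a that start lies inside the gene as its coordinates are given below, so the last of the printed bases belong to the gene and AGATAA ends just before its first base.

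Motifs were searched on both strands in the 250 bases before and the 50 bases after each start. AGATAA was in 2 of the 8 promoters, the second match lying at 14 to 19 after the upstream start of Dab2, and in 11.2% of all 32851 promoters of the RefSeq table. TATAAA was found in 1 of 8 (13.6% of all) and AAGATGG in 1 of 8 (6.34% of all). The FOXA motif TGTTTAC (3.65% of all) and the HNF4 motif CAAAGTC (4.44% of all) were in 0 of the 8. None of the matches overlapped another. Base composition differed between the genes, with a GC content of 37.7% at the upstream Dab2 start and 44.3% at Cubn, and of 62.3% at Amn and 65.0% at Lrp2, beside a median of 52.7% over all promoters.

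Most of these genes had lower levels in the library labelled Diff–iKO, some of them close to undetected. With the cut-off of the study's methods, FC ≥ 2 and FPKM ≥ 2, the latter in at least 1 library, all 10 genes reached the FPKM minimum. Of them 8 were lower and 1, Trf, was higher, while Lrp2 was lower by less than the cut-off. Of the genes past the cut-off the closest to it were Cubn, 2.59-fold lower, and Trf, 2.69-fold higher, both with counting intervals clear of 2-fold. Lrp2, 1.43-fold lower, was the only gene inside it, also clear of 2-fold. Over all 12376 genes that reached the minimum, 8.39% were lower and 6.73% were higher. A level at least 16-fold lower was seen for 5 of the 10 genes and for 0.372% of all genes at the minimum. With a pseudocount of 1 it was seen for 3, Afp, Ttr and Spink1. The 10 genes were chosen from these same libraries, so these counts describe them and are no evidence about them. In RNA from a whole culture, fewer cells of a type and less RNA per cell cannot be told apart.

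**Figure D1:**
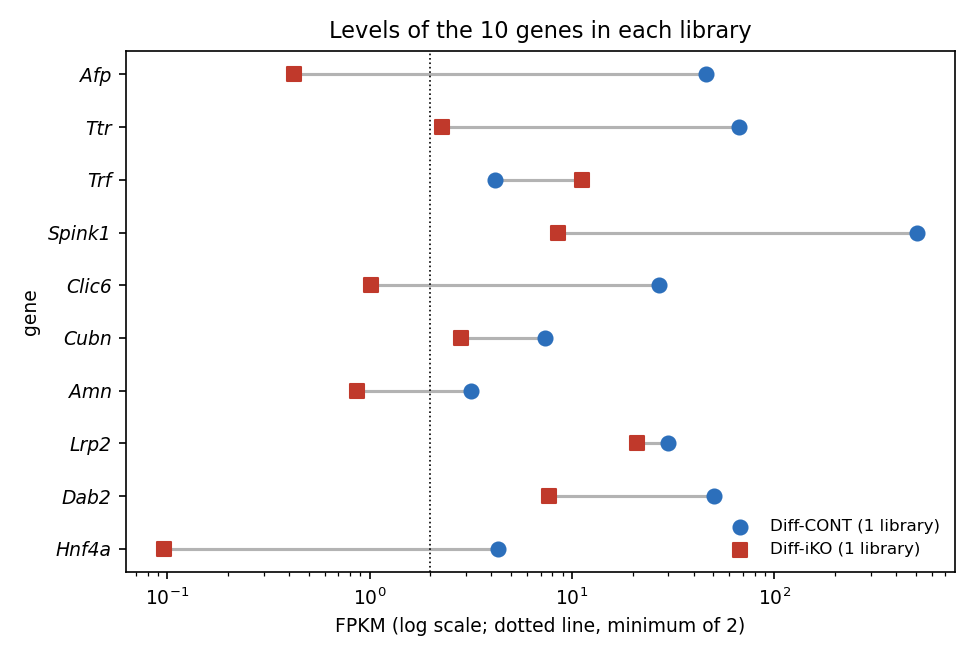
FPKM on a log scale for each of the 10 genes, with a circle for the single Diff–CONT library and a square for the single library labelled Diff–iKO. Spink1 runs from 508 down to 8.57 and Afp from 45.9 to 0.422, whereas the Lrp2 symbols, 29.9 and 20.9, lie close together and those of Trf are in the opposite order.

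Among the secreted carriers, Afp and Ttr were lower and Trf was higher. Afp encodes alpha-fetoprotein, the main plasma protein of the fetus, and lies on chromosome 5 from 90490714 to 90508907 of GRCm38. Its FPKM was 45.9 in the control and 0.422 in the library labelled Diff–iKO, which left 0.920% of the control value. That is a log2 ratio of -6.76 with an interval of -7.50 to -6.08, and it rests on 2580 and 18 fragments. Afp ranked 19 from the lowest log2 ratio among the 12376 genes.

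Ttr encodes transthyretin, which carries thyroid hormone and, bound to the retinol-binding protein, vitamin A. Its FPKM was 66.7 in the control and 2.28 in the other library. The log2 ratio was -4.87, with an interval of -5.30 to -4.47. The value in the library labelled Diff–iKO rests on 51 fragments and is just above the minimum of 2.

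Trf encodes transferrin, the iron carrier of plasma, on chromosome 9 from 103208876 to 103230286. Its FPKM was 4.18 in the control, from 298 fragments, and 11.2 in the library labelled Diff–iKO, from 600. The log2 ratio was 1.43, with an interval of 1.23 to 1.64. Of the 10 genes it was the only one with a higher value there. The ratio of Trf to Afp FPKM was 0.0910 in the Diff–CONT library (interval 0.0804 to 0.103) and 26.6 in the other (interval 16.7 to 45.2). Ttr and Afp also differed in how much remained, since the ratio of Ttr to Afp went from 1.45 (1.37 to 1.54) to 5.40 (3.10 to 9.82).

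Spink1, a secreted inhibitor of trypsin-like proteases, had the highest level of the 10 genes in the Diff–CONT library, where it ranked 113 among all 24354 genes. In the other library its FPKM was 8.57 instead of 508, at rank 7785, and the log2 ratio was -5.89 with an interval of -6.19 to -5.62. By itself it made up 0.115% of the summed FPKM of the Diff–CONT library and 0.00182% of that of the other. Without Spink1 the remaining genes still differed, since Afp, Ttr and Trf together had a summed FPKM of 117 and 13.9.

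Clic6, of the chloride intracellular channel family, lies on chromosome 16 from 92498147 to 92541241. The FPKM was 27.1 and 1.02. The log2 ratio was -4.74, with an interval of -5.08 to -4.42, from 2899 and 81 fragments. This is close to the log2 ratio of Ttr, and the counting intervals of Clic6 and Ttr overlap.

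The receptor genes kept more of their level than Afp, Ttr and Spink1 did. Cubn, which encodes cubilin, the receptor for the intrinsic factor-vitamin B12 complex and for albumin, lies on chromosome 2 from 13276338 to 13491876. Its FPKM was 7.35 and 2.84 and its log2 ratio -1.37, with an interval of -1.49 to -1.25, from 2442 and 705 fragments. Amn, the gene of the membrane anchor amnionless on chromosome 12 from 111271096 to 111276426, reached an FPKM of 3.16 and 0.862. Its log2 ratio of -1.87 had a wider interval, -2.51 to -1.30, and rests on 143 and 29 fragments.

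Lrp2, the megalin gene on chromosome 2 from 69424335 to 69586029, differed least among the lower genes. The FPKM was 29.9 and 20.9, so 69.9% of the control value was left, and the log2 ratio of -0.52 had a narrow interval of -0.56 to -0.47 from 13703 and 7158 fragments. Its interval lay below 0 but inside the 2-fold limits, and among the 10 genes it had the highest FPKM in the library labelled Diff–iKO. Dab2 encodes an adaptor that links the tail of megalin to clathrin, and it lies on chromosome 15 from 6299788 to 6440715. Its FPKM was 50.6 and 7.71, and the log2 ratio was -2.71, with an interval from -2.86 to -2.57. Exons of Cubn and Dab2 overlap, on the opposite strand, those of the predicted genes Gm13270 and Gm18888 in GENCODE vM21, and exons of Trf overlap those of Gm20425 on the same strand. These predicted genes have no row of their own in the values used. The library kit keeps the strand, but whether the counting used it is not given in the sources used here, so an effect of the overlaps on Cubn, Dab2 and Trf was not tested. Dab2 has transcripts of several lengths, so its fragment numbers, 3826 and 436, are approximate.

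Cubilin, amnionless and megalin act as partners at the same membrane, so their FPKM values were set against each other within each library. The ratio of Lrp2 to Cubn was 4.07 (interval 3.90 to 4.25) in the Diff–CONT library and 7.36 (6.81 to 7.97) in the library labelled Diff–iKO. That of Dab2 to Lrp2 went the other way, from 1.69 (1.63 to 1.75) to 0.369 (0.334 to 0.406). For the pair that forms the cubilin complex, the ratio of Amn to Cubn was 0.429 (0.360 to 0.508) and 0.303 (0.202 to 0.440), and these intervals overlap.

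Hnf4a lies on chromosome 2 from 163506811 to 163572907. Its FPKM was 4.33 in the control and 0.0963 in the library labelled Diff–iKO, which rests on 9 fragments. Its log2 ratio was -5.49, with the widest interval of the 10 genes, -6.63 to -4.56, and with a pseudocount of 1 it was -2.28. FPKM per gene does not separate the transcripts of the pair of annotated Hnf4a starts.

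**Figure D2:**
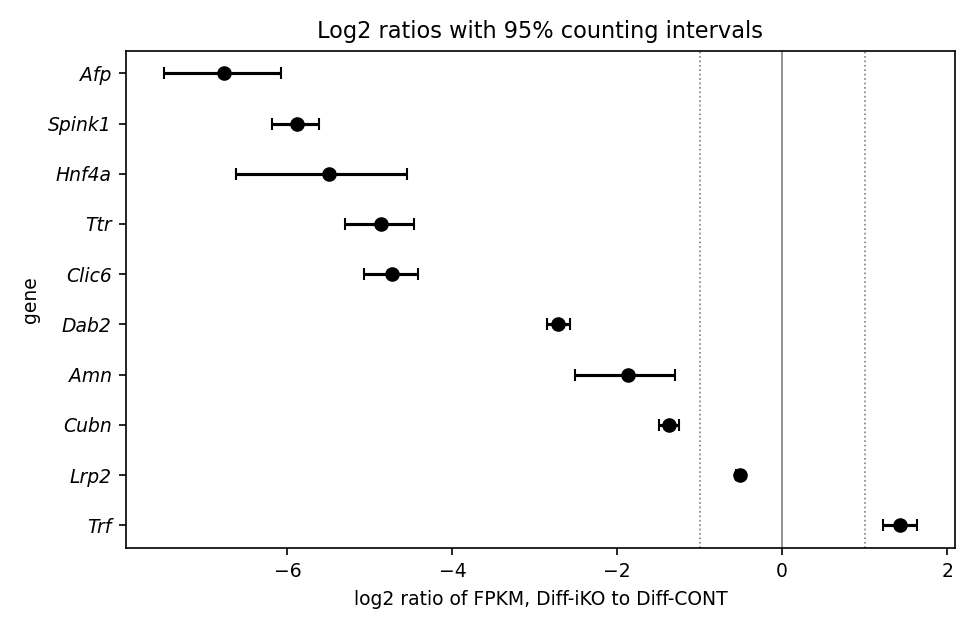
Log2 ratio of FPKM in the library labelled Diff–iKO to the Diff–CONT library for the 10 genes, ordered by value, with bars for the 95% counting interval and dotted lines at the 2-fold cut-off. The 5 lowest genes, from Afp at -6.76 to Clic6 at -4.74, are separated by a gap from Dab2 at -2.71, Amn at -1.87, Cubn at -1.37 and Lrp2 at -0.52, and Trf lies at 1.43.

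Ordered by log2 ratio, the genes ran Afp, Spink1, Hnf4a, Ttr, Clic6, Dab2, Amn, Cubn, Lrp2 and Trf. Neighbours from Afp to Clic6 had overlapping counting intervals, as did Amn and Cubn. The intervals of Clic6 and Dab2, of Dab2 and Amn, of Cubn and Lrp2 and of Lrp2 and Trf did not overlap. The order of the levels also differed between the libraries. In the Diff–CONT library it was Spink1, Ttr, Dab2, Afp, Lrp2, Clic6, Cubn, Hnf4a, Trf and Amn, where only the last 3 were within counting error of a neighbour. The order in the library labelled Diff–iKO was Lrp2, Trf, Spink1, Dab2, Cubn, Ttr, Clic6, Amn, Afp and Hnf4a. There the neighbours whose intervals overlapped were Trf with Spink1, Spink1 with Dab2, Cubn with Ttr, Clic6 with Amn, and Amn with Afp. Summed over the 10 genes, FPKM was 747 and 56.0, or 0.170% and 0.0119% of each library's sum.

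Other genes known from visceral endoderm are set beside the 10 genes as a description, since this list too was chosen with earlier results known. Of the 22, 21 reached the FPKM minimum, 17 of these were lower and 1 was higher. Of the 17, 13 were under an FPKM of 2 in the library labelled Diff–iKO and so reached the minimum through the control alone. Their median log2 ratio of FPKM + 0.1 was -3.54 over the 21 genes whose mean FPKM was 1 or more, beside -0.01 over the 13145 such genes in all. With a pseudocount of 1 it was -1.92. Rbp4, the plasma carrier of vitamin A, had an FPKM of 111 and 3.05, and Apob, the structural protein of lipoproteins, 47.0 and 0.290. S100g, a calcium-binding protein gene, had 33.7 and 0.450, and Spp2 had 5.07 and was listed at 0. Gpc3, a glypican gene that is also expressed in mesoderm, went from 659 to 199.9 and alone made up most of the summed FPKM of this list in the control. The sum was 1231 and 400.1. The exception was the homeobox gene Rhox5, at 37.8 and 79.5, which was no longer past the cut-off when the libraries were scaled to the same sum.

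**Figure D3:**
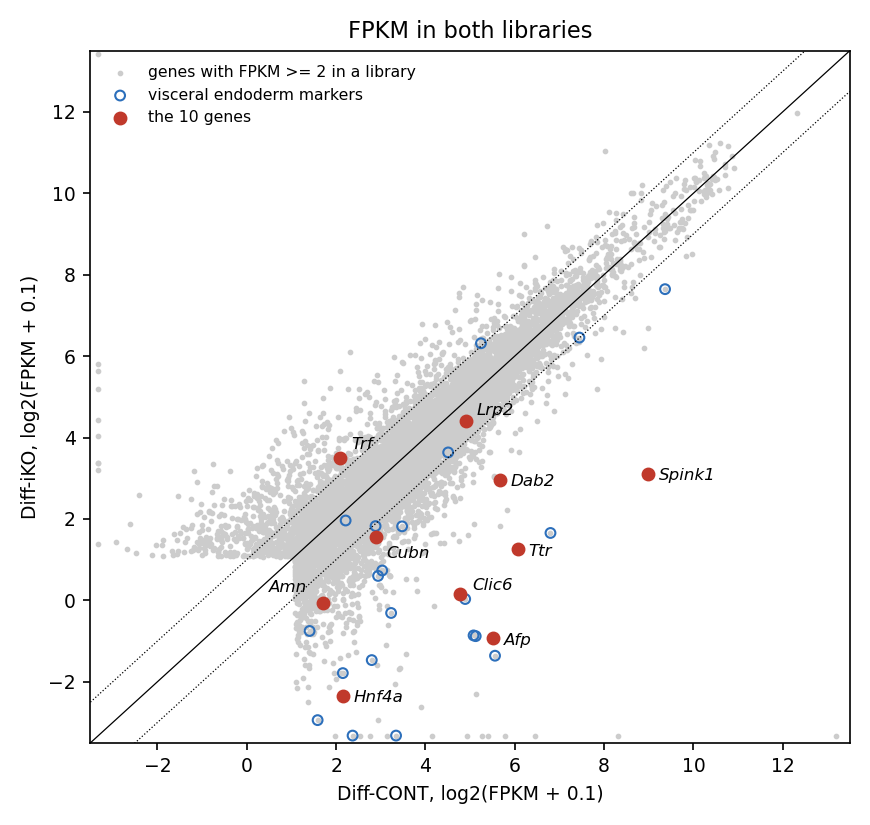
Log2(FPKM + 0.1) in the library labelled Diff–iKO against the Diff–CONT library for the 12376 genes with FPKM of at least 2 in a library (grey), the visceral endoderm markers among them (open circles) and the 10 genes (filled, named). Lines mark equality and 2-fold differences. Spink1, Ttr, Clic6, Afp and Hnf4a lie far below the band of most genes, as do many visceral endoderm markers, and Lrp2 lies inside it.

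Other cell types that express some of these genes were looked up in the same way. Of 14 hepatocyte genes, 10 had an FPKM under 1 in both libraries and 6 were listed at 0 in both, among them Cyp3a11, Cyp2e1 and Cyp7a1. Alb, which encodes serum albumin, was at 0.0538 and 0.0480. Tdo2 of this list went from 7.60 to 0.0308 and Ass1 from 13.4 to 32.6. The summed FPKM of the list was 37.1 and 44.5, while the median log2 ratio was -0.73 over 4 genes, 3 of them below 0. Among 10 genes of the kidney proximal tubule, where Lrp2, Cubn and Amn also act, 8 were under 1 in both libraries, Slc34a1 and Slc7a13 were listed at 0 in both, and the sum was 8.79 and 6.30. For 10 genes of pancreatic acinar cells, where Spink1 is also made, 9 were under 1 in both, Cela3b was listed at 0 in both, and the sum was 1.79 and 3.61. Of 10 intestinal genes, 2 were lower, Vil1 (5.55 and 0.791) and Cdx2 (4.00 and 0.705), Sis was listed at 0 in both, and the sum was 13.8 and 5.43. For 11 genes of choroid plexus, where Ttr and Clic6 are also expressed, the sum was 63.4 and 108. The median log2 ratio of this list was -0.54 over 6 genes, 4 of them below 0. Folr1 (17.7 and 77.6) and Slc4a5 (1.19 and 4.26) were higher, Enpp2 (9.13 and 3.89) was lower, and Kcnj13, at 0 and 0.0383, was close to undetected. The part of these cell types in the levels of the 10 genes was not tested.

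The factors that act with Hnf4a in endoderm were taken as a list of 18 genes, of which 14 reached the minimum. Of these 11 were lower and 1 was higher, with a median log2 ratio of -1.69 over 15 genes. Of the 11, 6 were under an FPKM of 2 in the library labelled Diff–iKO and so reached the minimum through the control alone. Gata4 had an FPKM of 20.1 and 2.56 (log2 ratio -2.97), Foxa2 13.8 and 4.19 (-1.72), and Gata6, with Gata4 a factor of primitive endoderm, 8.85 and 2.36 (-1.91). Sox17, a factor of endoderm, went from 5.36 to 0.317. Which cells of the culture held the RNA of these factors was not tested. Nr5a2, a nuclear receptor gene, was the 1 factor higher past the cut-off, at 1.17 and 6.87 (log2 ratio 2.56). Cebpa (1.17 and 2.28) and Cebpb (3.65 and 5.38) were higher by less than the cut-off.

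Other genes for secreted carriers and plasma proteins were not all lower. Of 30 such genes, which include fibrinogen chains, clotting factors and protease inhibitors beside carriers, 15 reached the minimum, 8 of these were lower and 2 were higher, with a median log2 ratio of -1.50 over 16 genes. Rbp4, Apob, Apoa1 (34.8 and 0.444) and Apom (29.6 and 0.923) were among those lower. Of the 8, 7 were under an FPKM of 2 in the library labelled Diff–iKO and so reached the minimum through the control alone. Among the visceral endoderm genes above, 7 of the 8 are also counted. Fgb, a fibrinogen chain gene (9.30 and 0.707), and Kng1, the kininogen gene (4.02 and 1.61), do not encode carriers. Cp, which encodes the copper-carrying ferroxidase ceruloplasmin, was higher at 23.5 and 52.6, and so was Fetub at 0.731 and 4.89. Apoe, which many cell types make, had the highest FPKM of the list, 637 and 1086, and did not reach the cut-off.

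The machinery that serves the receptors was mostly at like levels in both libraries, as were all genes at the minimum, of which 8.39% were lower and 6.73% higher. Of 36 genes for partner receptors, chaperones, adaptors, clathrin, AP2 and Rab proteins, 35 reached the minimum, 2 of these were lower and 1 was higher, and the median log2 ratio was -0.04. Lrpap1, the chaperone of megalin, was at 61.9 and 71.7, and Lrp1, a receptor related to megalin, at 81.7 and 80.2. Clta, a clathrin light chain gene, was at 148 and 155. The 2 genes past the cut-off downward were Vldlr, a lipoprotein receptor gene (13.9 and 3.72, log2 ratio -1.90), and Myo6, the gene of a motor of endocytic vesicles (13.3 and 6.57), where the log2 ratio was -1.02 and its interval, -1.12 to -0.92, reached across the cut-off. Cltb, the other clathrin light chain gene, was higher at 11.8 and 28.7. Among 12 genes that handle vitamin B12, which cubilin takes up in the gut, 12 reached the minimum and 0 were past the cut-off. Their median log2 ratio was 0.02, and the highest of them, Tcn2, the transcobalamin gene, was at 85.0 and 123.

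Because Trf was the exception among the 10 genes, 16 genes of iron handling were examined. Of them 14 reached the minimum, 3 were higher and 1 was lower, and the median log2 ratio was 0.22. Those higher were Cp, Slc39a14, an importer of iron and zinc (14.0 and 28.8), and Steap3, which reduces iron in endosomes (4.46 and 9.36). When the libraries were scaled to the same sum, only Cp of these stayed past the cut-off. Heph, a ferroxidase of iron export related to Cp, was lower at 11.5 and 3.94. The transferrin receptor gene Tfrc was at 86.8 and 149, a log2 ratio of 0.77 that did not reach the cut-off. Ftl1, a ferritin light chain gene with near-identical copies in the genome, had the highest FPKM of the list, 1386 and 1937.

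**Figure D4:**
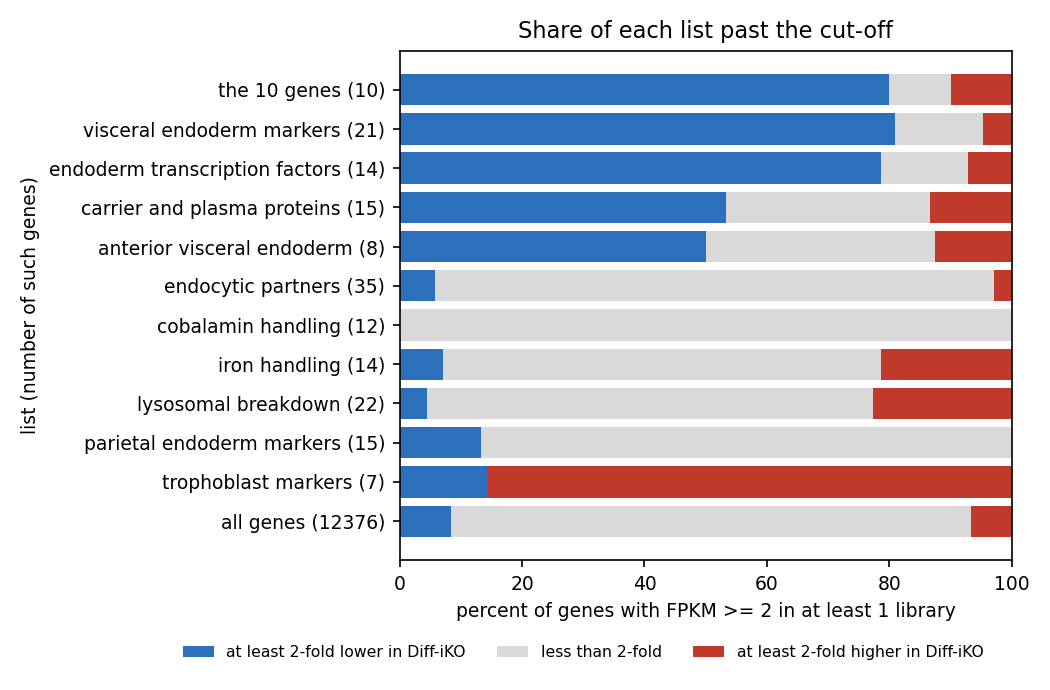
Share of the genes with FPKM of at least 2 in at least 1 library that were at least 2-fold lower, less than 2-fold different or at least 2-fold higher in the library labelled Diff–iKO, for the 10 genes, 10 lists and all genes, with the number of such genes in brackets. Of the endocytic partners 2 of 35 were lower and of the visceral endoderm markers 17 of 21, and all genes show 8.39% lower and 6.73% higher.

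Relatives of the 10 genes by sequence were taken as a list of 17 paralogs. Of these 5 reached the minimum and 0 were past the cut-off, beside 8.39% lower and 6.73% higher over all genes. Besides Alb, the other genes of the albumin family were low in both libraries, with Afm at 0.0726 and 0.0728 and Gc at 0.758 and 0.356. Clic1 was at 204 and 166 and Clic4 at 67.2 and 72.2, Lrp4 at 15.6 and 8.49, and Dab1 at 5.27 and 3.43. Under an FPKM of 2 in both libraries were Clic3 (0.272 and 0.0725), Clic5 (1.40 and 0.801), Lrp1b (0.165 and 0.110), Ltf (0.195 and 0.174), Mfi2 (0.270 and 0.644) and Hnf4g (0.00834 and 0.0223). The same held for Spink2 (0.0749 and 0.906) and Spink5 (0.0291 and 0.146), and Spink4 was listed at 0.

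The position of the genes was compared with the differences. For each of the 10 genes, the nearest gene on either side that reached the FPKM minimum was taken, at a distance of 3.94 kb to 1081 kb. Of these 20 neighbours 0 were past the cut-off, and their log2 ratios of FPKM + 0.1 ran from -0.63 to 0.58 with a median of 0.09. Over all genes at the minimum 8.39% were lower and 6.73% higher, so most genes at any position were inside the cut-off. Rsu1, 4.90 kb from Cubn, was at 40.2 and 43.0, and Traf3, 3.94 kb from Amn, at 7.34 and 7.83. The neighbours of Afp were Ankrd17 (31.8 and 34.7) and Rassf6 (1.94 and 2.24), and those of Hnf4a were Fitm2 (4.71 and 7.09) and Ttpal (6.77 and 10.2).

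**Figure D5:**
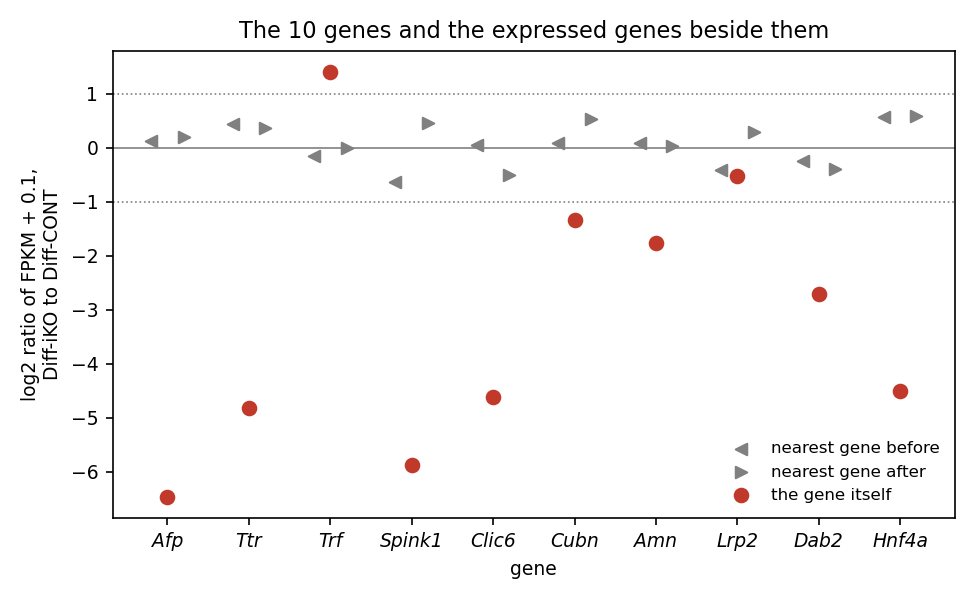
Log2 ratio of FPKM + 0.1 in the library labelled Diff–iKO to the Diff–CONT library for each of the 10 genes (circles) and for the nearest gene before and after it on the chromosome that reached the FPKM minimum (triangles), with dotted lines at the 2-fold cut-off. The 20 triangles lie between -0.63 and 0.58, and the circles, apart from Lrp2, lie outside the dotted lines.

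The genes nearest to each of the 10 were found as those at the smallest distance in log2(FPKM + 0.1) over the 2 libraries, which compares only 2 values per gene. For Afp they were Apoa1 (34.8 and 0.444), Apob and S100g, at distances of 0.40 to 0.45. For Clic6 the nearest was Apom at 0.18, followed by Fgf8 (18.3 and 0.807) and AA465934. Nearest to Hnf4a were Tcf21 (3.49 and 0.128), Tff3 (3.92 and 0.162) and Habp2 (4.34 and 0.190). Ttr had Capn6 (50.5 and 3.46), Rbp4 and Ctsh (56.8 and 4.53) at distances of 0.71 to 0.99. Spink1 stood farther from other genes, the nearest being Podxl (228 and 36.7) at 2.39, before H1f0 and Rbp4. Dab2 was nearest to Mfap4 (48.4 and 7.79) and Lum (46.3 and 8.00), genes of connective tissue matrix, and to the histone variant gene H2afy2 (46.1 and 8.22). Gm14005, Cxcl16 and Plbd1 were nearest to Trf, and Efna2, Fzd3 and Thsd4 to Cubn. Those nearest to Amn were Col25a1, Colgalt2 and Eya2, and those nearest to Lrp2 were Cdc23, Ube3b and Plxnb1.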

How the data were processed

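Poly(A) RNA of 2 libraries, 1 per condition, was sequenced. The authors deposited FPKM values of 24354 genes, which the study's methods and the submitters' processing notes trace to STAR 2.7.9a on mm10 and to Cuffquant and Cuffnorm of Cufflinks 2.2.1. The gene annotation and the strand setting are not given in the sources used here. Columns were matched to the libraries by name, and all were used.

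The log2 ratio was taken without a pseudocount, and list medians with a pseudocount of 0.1 over genes whose mean FPKM was 1 or more. The 10 genes and the 17 lists were chosen with earlier results of these data known. Named genes were the 10 genes, their paralogs and 3 nearest genes, the highest gene of each list and up to 3 past the cut-off per direction. Genes at 0, near-0 markers, chromosomal neighbours and list members such as S100g, Spp2, Sox17, Tfrc, Heph and Lrpap1 were named outside that rule, after their values were seen, and not every gene the rule admits is printed. Some genes of the lists and 1 planned promoter motif are not reported here.

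Fragments per gene were recovered from the 10484 genes that have a single RefSeq transcript, 1000 nucleotides or longer. There 87.1% and 86.9% of low values lay within 0.2 of a whole number of fragments, against 40% by chance, with 190 nucleotides taken off each transcript. Transcript lengths are from GENCODE vM21 (GRCm38), the shortest with a RefSeq entry, and coordinates and promoters from RefSeq GRCm38.p6. The steps were tested on simulated data. The planned comparison of protein sequences was not run and the sequences are not used here. Values were computed with pandas 2.3.3 and numpy 2.4.6 in Python 3.11.15, intervals with scipy 1.17.1, and plots with matplotlib 3.10.9.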

Additional observations from a re-analysis of the deposited data

How the results depend on the processing

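The 8 lower genes and Trf kept their side of the cut-off with a pseudocount of 0.1 or 1, under 3 other scalings, without a filter on FPKM and at FC ≥ 1.5. Lrp2 stayed under the cut-off in each of these. With FPKM ≥ 2 asked of both libraries, 4 of the 10 genes were counted as lower, because fewer genes qualify, and with FPKM ≥ 5 in at least 1 library 6 were. At FC ≥ 4, 6 genes were lower and 0 higher. Over the 253 distinct genes of the lists, 43 were lower and 24 higher. Without a filter on FPKM these counts were 67 and 45, and with FPKM ≥ 2 in both libraries 17 and 16. Scaling to the same sum gave 44 and 19, and a pseudocount of 1 gave 39 and 21. The same-sum scaling shifted all log2 ratios by -0.0937, and the other scalings by less.

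A pseudocount of 1 brought the median log2 ratio of the carrier and plasma proteins from -1.50 to -0.95, and that of the endoderm factors from -1.69 to -1.17. It also moved the ratios between low genes. Lrp2 to Cubn became 3.70 in the control and 5.71 in the other library, Amn to Cubn 0.498 and 0.485, Trf to Afp 0.110 and 8.61, and Ttr to Afp in the library labelled Diff–iKO 2.31. Of 60 log2 ratios of the 10 genes under the alternatives, 51 stayed within the counting interval, 9 left it and 0 changed sign. Searching the strand of the gene alone left AGATAA in 1 promoter. Each symbol has 1 row, so summing rows changed nothing. No paired analysis was possible because each condition has 1 library, and for the same reason no library could be left out. Precision is least for Hnf4a, Afp and Amn, which rest on 9, 18 and 29 fragments in the library labelled Diff–iKO.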

Other observations

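Lysosomes receive the proteins that the receptors take up. Of 22 lysosomal genes, 22 reached the FPKM minimum, 5 were higher and 1 was lower in the library labelled Diff–iKO, and the median log2 ratio was 0.56. Ctsd, the cathepsin D gene, went from an FPKM of 461 to 1169, Psap, which encodes the precursor of the saposins, from 309 to 731, and Lamp1, a lysosomal membrane protein gene, from 227 to 486. Gla (6.85 and 15.3), which encodes a lysosomal glycosidase, was also higher. Ctsh, the cathepsin H gene, was the exception at 56.8 and 4.53, a log2 ratio of -3.65 (interval -3.90 to -3.40).

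Markers of other extraembryonic cells and of blood cells were counted in the same way. Of 16 genes known from parietal endoderm, the layer that makes the outer basement membrane of the yolk sac, 15 reached the minimum, 2 were lower and 0 higher. Sparc, a matrix protein gene, was at 708 and 1244, and the lower genes were Pth1r (19.2 and 5.99) and Fst (8.54 and 3.42). Of 9 genes of the anterior visceral endoderm, 4 were lower, among them Lhx1 (4.74 and 0.296) and Sfrp5 (5.58 and 0.650), while Lefty1, a Nodal antagonist gene, was at 26.9 and 185.9. Of 10 trophoblast genes, 7 reached the minimum and 6 were higher, among them Prl3b1 (1.82 and 22.4) and Plac1 (11.6 and 26.5), while Hand1 was lower (70.8 and 31.3). The higher genes numbered 5 with a pseudocount of 0.1 or 1 and 4 with the libraries scaled to the same sum. Prl3b1, Prl3d1 (0.484 and 6.19) and Tpbpa (1.07 and 5.63) were under an FPKM of 2 in the control. So were Ascl2 (1.00 and 2.03) and Prl2c2 (0.221 and 2.06), which lie close to the minimum. All of these genes reached the minimum through the library labelled Diff–iKO alone. Of 9 macrophage genes, Csf1r (2.91 and 12.8) and Cd68 (10.5 and 27.1) were higher, while C1qa was listed at 0 in both libraries and Ptprc was at 0.0734 and 0.00893.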
